A study of Mus musculus with 8 samples.

Results

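The proteasome subunit genes were examined in hematopoietic stem cells (HSCs) from mouse bone marrow. Members were the array probes whose gene name in the scanner files was Psma, Psmb, Psmc or Psmd followed by a number, or Psme1 to Psme4, with Psmb8 and Psmb9 left out. This gave 40 genes of the 27600 gene names on the array, carried by 61 of its 41174 probes. By place in the complex they were 8 alpha and 8 beta genes of the core, 6 genes of the ATPase ring, 14 non-ATPase genes of the regulatory particle and 4 activator genes.

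Total RNA was measured on 8 Agilent 1-colour arrays, 1 sample each. The groups were NrasG12D/G12D HSCs, with both Nras alleles mutant (n = 3), NrasG12D/+ HSCs, with a single mutant allele (n = 3), and Nras+/+ HSCs, the controls (n = 2). Nras is a small GTPase of the Ras family, and its G12D form remains switched on. All mice were of strain B6. The sources used here give neither their age nor what drives the mutant allele. Nothing states that the samples of a group came from separate animals, so a p-value covers the spread among these samples alone.

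The proteasome degrades proteins that carry ubiquitin chains. Its core is a barrel of stacked rings: the outer rings are built of alpha subunits, which gate the entrance, and the inner rings of beta subunits, of which Psmb5, Psmb6 and Psmb7 carry the catalytic sites. The regulatory particle caps the barrel, with a ring of ATPases (Psmc genes) that unfold substrates and non-ATPase subunits (Psmd genes) that bind and remove ubiquitin. Psme1 and Psme2 form a cap induced by interferon, Psme3 a related nuclear cap, and Psme4 a large single-chain cap. HSCs are known to need controlled protein turnover and to make protein slowly.

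Probe sequences show what each measurement rests on. The following 60-base probes belong to members whose values are described further on. They are the deposited files' sequences, 5′ to 3′. Capitals mark stop-codon letters that end a reading frame otherwise free of stops. Coordinates are those of the files, which state no genome build.
Psma6: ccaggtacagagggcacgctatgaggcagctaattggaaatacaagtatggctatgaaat
Psmb1: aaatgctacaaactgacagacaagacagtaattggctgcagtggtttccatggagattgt
Psmb5: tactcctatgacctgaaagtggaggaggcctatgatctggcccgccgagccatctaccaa
Psmb7: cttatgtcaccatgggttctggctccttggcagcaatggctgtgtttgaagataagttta
Psmc3: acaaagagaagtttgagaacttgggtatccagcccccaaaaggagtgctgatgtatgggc
Psmc5, first probe: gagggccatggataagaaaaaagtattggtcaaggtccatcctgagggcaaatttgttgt
Psmc5, second probe: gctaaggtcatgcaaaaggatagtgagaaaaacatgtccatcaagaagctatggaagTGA
Psmd14: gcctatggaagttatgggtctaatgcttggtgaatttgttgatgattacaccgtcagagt
The Psmb1 probe lies at chr17:15198097-15199392 on the minus strand. Its 60 bases span 1296 bases of the genome, so it crosses at least 1 exon junction. The Psmb7 probe, at chr2:38435455-38455874 on the minus strand, likewise spans 20420 bases. Both Psmc5 probes lie on the plus strand of chromosome 11, at chr11:106077339-106077538 and at chr11:106078968-106079152, and the second stood for the gene in the tests.

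The share of spots well above background, a flag set by the scanner software, ranged over 26.0% to 30.3% for NrasG12D/G12D, 28.5% to 42.4% for NrasG12D/+, and 30.8% to 36.0% for Nras+/+ arrays. One slide held both Nras+/+ arrays and NrasG12D/+ replicates 1 and 2, and the other held NrasG12D/+ replicate 3 and the 3 NrasG12D/G12D arrays. Slide and genotype therefore overlap, and no slide held both NrasG12D/G12D and Nras+/+ arrays. Of 10 HSC markers, 5 were bright enough to test, and Procr and Tek were well above background on no array. The mean share of genes detected per array was 46.2% for the HSC markers and 27.5% to 67.5% for the 8 marker lists of other blood, endothelial and stromal cells. No gene of any marker list passed the test in a comparison. The 4 mature neutrophil, 2 megakaryocyte and 2 endothelial and stromal markers tested all had lower means in NrasG12D/G12D than in Nras+/+ arrays. Their median changes were -1.46, -0.7 and -3.39 on the log2 scale. Lower means were found for 9696 of all 15038 genes tested, with a median change of -0.44. The neutrophil markers Ltf, S100a9 and Ngp were not well above background in NrasG12D/G12D. S100a9 was not well above background in Nras+/+ either, and Ltf and Ngp were so on only 1 Nras+/+ array each. Mmp9, the other neutrophil marker tested, was well above background on all 8 arrays. Its change in that comparison was -0.40, or 0.05 relative to the median of all genes. The part of these markers in the results below was not tested.

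Most proteasome genes were detected on some arrays and not on others. A gene counted as detected on an array when at least 1 of its probes was well above background. Detected on all 8 arrays were 11 of the 40 members (27.5%, against 22.7% of all gene names), and on 2 or more arrays 30 members, against 55.2% of all gene names. A further 5 members (Psma1, Psma4, Psma8, Psmc6 and Psmd9) were detected on 1 array, and 5 (12.5%) on no array, against 34.0% of all gene names.

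Detection differed by structural class. The classes were read by different probes, with a mean of 1.12 (beta genes) to 2.0 (activators) probes per gene. The part of the probes in these differences was not tested. All 8 beta subunits of the core were detected on 2 or more arrays, and 5 of them (Psmb2, Psmb3, Psmb6, Psmb7 and Psmb10) on all 8. Of the alpha genes only Psma6 was detected on all 8 arrays, and Psma1, Psma4 and Psma8 on a single one. In the ATPase ring no gene was detected on all 8 arrays. Among the 14 non-ATPase genes, Psmd3, Psmd4 and Psmd7 were detected on all 8 arrays, whereas Psmd1, Psmd5, Psmd6, Psmd10 and Psmd13 were detected on none. Psmd5, Psmd9 and Psmd10 act as chaperones in the assembly of the regulatory particle, and Psmd9 was detected on 1 array. The activators Psme3 and Psme4 were detected on all 8 arrays.

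Fewer members were detected in the NrasG12D/G12D arrays than in the other 2 genotypes, except that Nras+/+ replicate 2 lay within their range. The NrasG12D/G12D arrays had 16, 18 and 20 members detected, NrasG12D/+ arrays 29, 26 and 21, and Nras+/+ arrays 21 and 19, in order of replicate number, as in all value lists here. The share of all gene names detected was 39.0%, 34.0% and 38.5% in NrasG12D/G12D arrays, 50.4%, 52.0% and 37.0% in NrasG12D/+ arrays, and 45.5% and 39.7% in Nras+/+ arrays. Whether the members followed the overall share of detected genes was not tested. In a bulk sample, fewer cells of a type and less RNA per cell cannot be told apart.

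**Figure D1:**
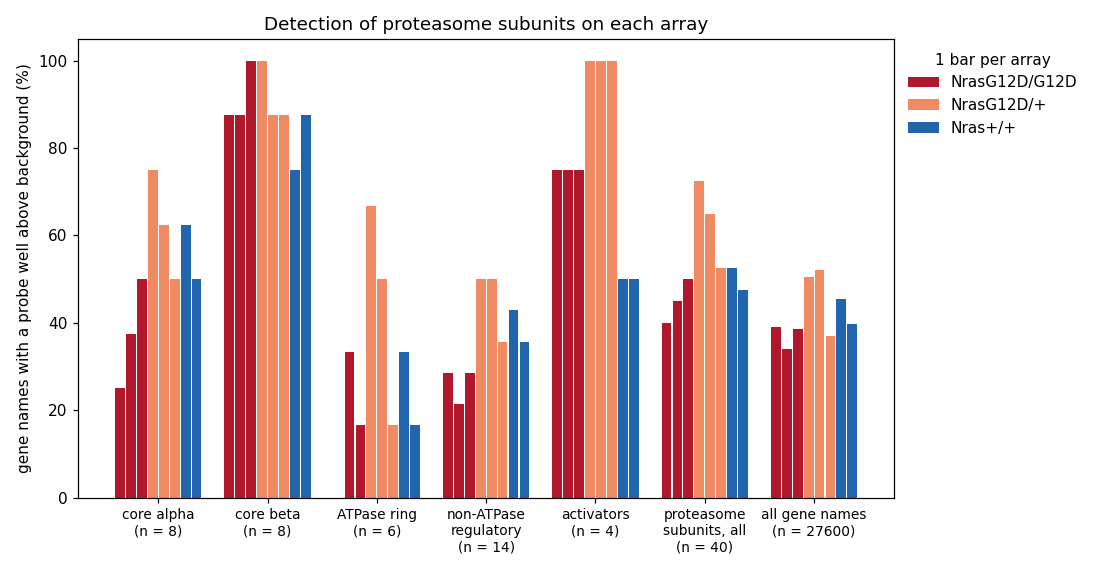
Share of gene names (%) with at least 1 probe well above background on each array, by structural class, for all 40 proteasome subunits and for all 27600 gene names; each bar is 1 array. Beta subunits of the core reach 75% to 100% on every array, and the ATPase ring 0.0% to 66.7%.

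Levels are given as log2 of the processed signal minus the array's 75th percentile over 6576 probes well above background on all 8 arrays, so that 0 is the level of that percentile. A gene was tested when a single probe of it met the detection flag on 2 or more arrays, and the brightest such probe stood for the gene. This left 29 of the 40 members among 15038 genes. Of the rest, 10 members were detected on at most 1 array, and Psmc4 was detected on 2 arrays by different probes, so these 11 were not tested. Levels of different probes are not set against each other, because probes differ in brightness at the same amount of RNA.

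In NrasG12D/G12D HSCs against Nras+/+ HSCs, proteasome genes had a median change of -0.46 on the log2 scale over 29 members, and all genes tested had -0.44. The change lay above that all-gene median for 14 of the 29 members. A higher mean was found for 10 of 29 members (35.5% of all genes), and the arrays of the 2 genotypes did not overlap for 8 members, 1 higher and 7 lower (29.0% of all genes, 6.04% higher and 23.0% lower). No member passed an adjusted p of 0.05 in limma with Benjamini-Hochberg adjustment, as was the case for 0.0% of all genes. The lowest adjusted p of a member was 0.725. At an unadjusted p under 0.05 there were 4 members, Psmb1 with a higher mean and Psma5, Psmc3 and Psmd11 with lower ones, against 6.52% of all genes, 1.32% higher and 5.19% lower. With slide as a block the median change was -0.40 for the members and -0.75 for all genes. No slide held both genotypes, so slide-block values of this comparison, here and below, join the slides through NrasG12D/+ arrays. Of these only replicate 3 lay on the slide of the NrasG12D/G12D arrays.

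NrasG12D/+ HSCs against Nras+/+ HSCs gave a median change of -0.11 for the members and -0.26 for all genes, with 18 of 29 members above the all-gene median. Of the 29 members 14 had a higher mean, against 41.9% of all genes. The 2 genotypes did not overlap for 7 members, 4 higher and 3 lower, against 25.1% of all genes, 8.98% higher and 16.1% lower. Again 0 members passed, with 0.0% of all genes, and the lowest adjusted p was 0.814. An unadjusted p under 0.05 was reached by 2 members, Psma7 and Psmb1, both with higher means (4.75% of all genes, 2.35% higher and 2.4% lower). Within the slide that held both genotypes, and with slide as a block, the median was 0.18 for the members and -0.36 for all genes.

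Between the 2 mutant genotypes the members lay lower in NrasG12D/G12D HSCs than in NrasG12D/+ HSCs, by a median of -0.67 on the log2 scale, with -0.20 for all genes, and 8 of 29 lay above the all-gene median. A higher mean was found for 5 of 29 members, against 42.2% of all genes. The genotypes did not overlap for 3 members, all lower, against 11.6% of all genes, 2.89% higher and 8.74% lower. None passed (0.0% of all genes; lowest adjusted p 0.802), and 2 reached an unadjusted p under 0.05, Psma7 and Psmb7, both with lower means, against 5.95% of all genes, 1.61% higher and 4.34% lower. Within the slide that held both genotypes the medians were -0.89 for the members and -0.37 for all genes. With the normexp background correction, whose offset of 50 draws log2 changes of dim probes towards 0, they were 0.00 and 0.11. Without NrasG12D/G12D replicate 1 the median of the members was -0.25 and that of all genes -0.13. Each array enters 2 of the 3 comparisons, so their values are not independent.

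By class, the median change in NrasG12D/G12D against Nras+/+ was -1.36 for the 5 alpha genes tested, -0.35 for the 8 beta genes, -0.66 for the 4 genes of the ATPase ring, -1.12 for the 8 non-ATPase genes and 0.45 for the 4 activators. In NrasG12D/+ against Nras+/+ these medians were -0.22, 0.88, -0.32, -0.08 and 0.74, in the same order of classes. In NrasG12D/G12D against NrasG12D/+ they were -1.07, -0.86, -0.56, -0.81 and -0.29.

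**Figure D2:**
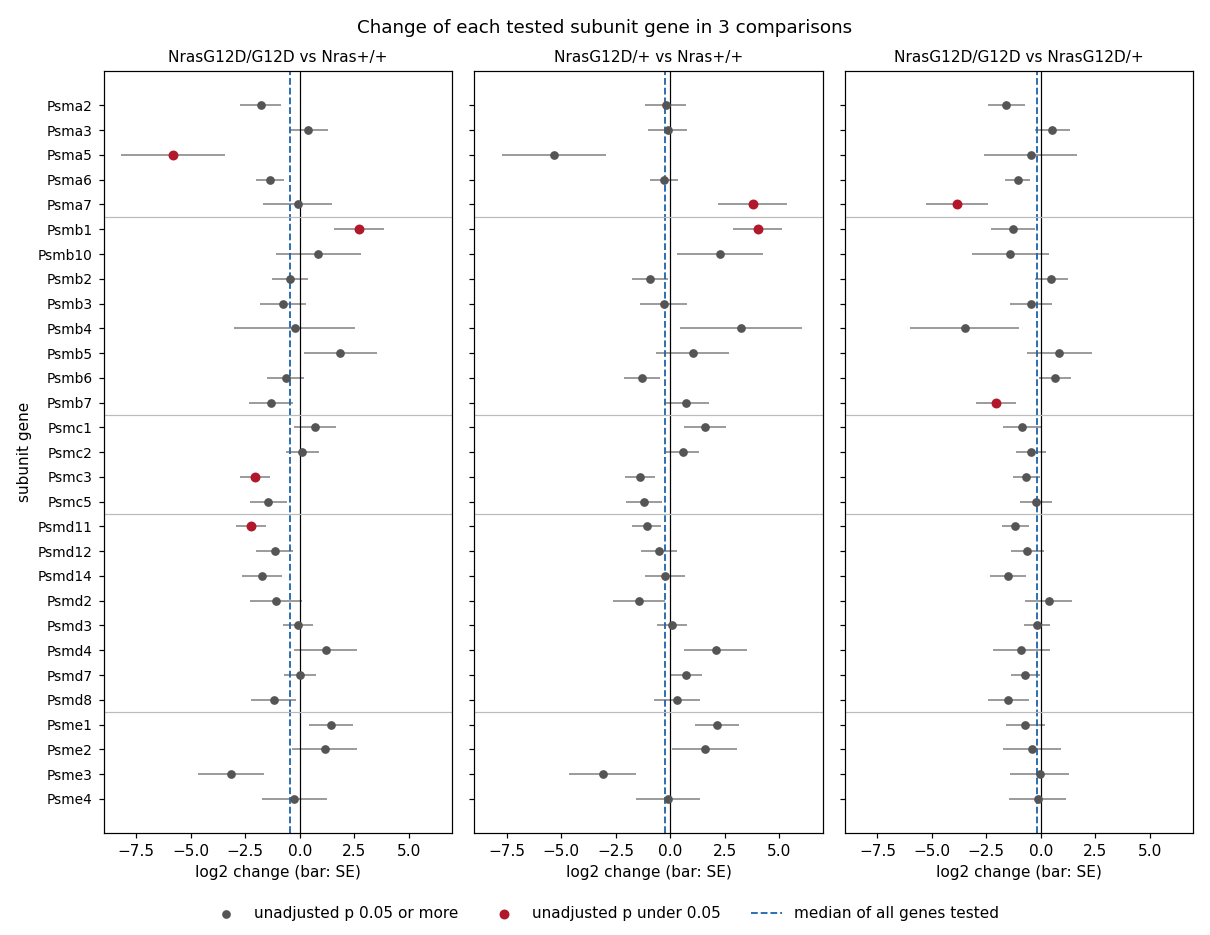
Log2 change of each of the 29 tested subunit genes in 3 comparisons (horizontal axis), with the first-named genotype minus the second and bars for the standard error of limma. Red points have an unadjusted p under 0.05, none passed after adjustment, and the dashed line is the median change of all genes tested (-0.44, -0.26 and -0.20 from left to right).

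Arrays of the same genotype often differed widely. The within-genotype SD had a median of 1.15 on the log2 scale over the 29 members, against 1.06 over all genes tested, and ran between 0.23 (Psma6) and 3.96 (Psmb4). NrasG12D/G12D replicate 1 was the lowest array for 10 of the 29 members (24.5% of all genes) and the highest for 0. Nras+/+ replicate 2 was the highest array for 8 members, against 22.4% of all genes. Among the 11 members well above background on all 8 arrays, levels were hardly correlated across the 8 arrays: Pearson's r had a median of 0.08 over 55 pairs of genes and ran between -0.70 and 0.76. These pairs share arrays and scaling, and the median over all pairs of genes measured on all 8 arrays was 0.04.

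**Figure D3:**
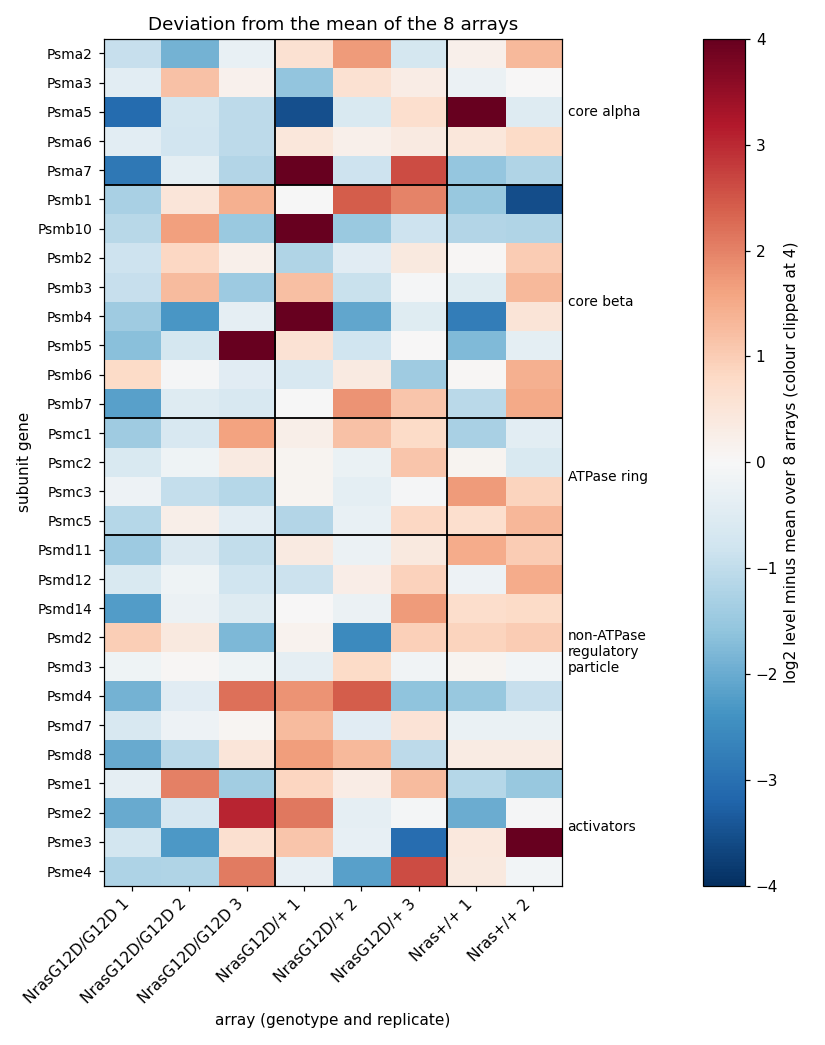
Log2 level of each tested subunit gene (rows, grouped by structural class) on each array (columns), as the deviation from that gene's mean over the 8 arrays, with colour clipped at 4. Single cells, such as Psmb4 on NrasG12D/+ replicate 1 and Psma5 on Nras+/+ replicate 1, lie far above the rest of their rows.

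In 5 members a single array exceeded every other by more than 3 on the log2 scale, which was seen in 7.49% of all genes tested. This threshold was chosen after the values were seen. Psmb4, a non-catalytic beta subunit, had 5.33 on NrasG12D/+ replicate 1 and -3.10 on the next highest array. Psmb10 was also highest on NrasG12D/+ replicate 1. Psma5 was highest on Nras+/+ replicate 1, Psmb5 on NrasG12D/G12D replicate 3 and Psme3 on Nras+/+ replicate 2. Over all genes with such a gap, 25.4% had it on NrasG12D/+ replicate 1, the array whose levels correlated least with the others (mean r 0.564, against 0.627 to 0.642).

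Among the alpha subunits, Psma5 had log2 levels of -6.76, -4.42 and -4.72 in NrasG12D/G12D HSCs, -7.20, -4.29 and -3.00 in NrasG12D/+ HSCs, and 5.18 and -4.18 in Nras+/+ HSCs. Only Nras+/+ replicate 1 was high, and the other Nras+/+ array lay just above the NrasG12D/G12D arrays. The change in NrasG12D/G12D against Nras+/+ was -5.80 ± 2.39 (SE; unadjusted p = 0.0384, adjusted p = 0.725). No NrasG12D/G12D array had the probe well above background, so the mean level there was at least 26.1-fold lower in these samples. Bounds of this kind, here and below, compare mean scaled levels. They allow for neither the spread among arrays nor the median change of all genes. The bound of 26.1-fold rests on 1 array: relative to the median change of all genes the change was -5.36, and -0.64 without Nras+/+ replicate 1. With slide as a block it was -7.79.

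Psma7, another subunit of the alpha ring, had levels of -4.93, -2.44 and -3.24 in NrasG12D/G12D HSCs, 3.33, -2.88 and 0.55 in NrasG12D/+ HSCs, and -3.60 and -3.28 in Nras+/+ HSCs. All 3 NrasG12D/+ arrays lay above both Nras+/+ arrays, but replicate 2 did so narrowly and lay within the NrasG12D/G12D range. The change in NrasG12D/+ was 3.78 ± 1.59 against Nras+/+ (SE; unadjusted p = 0.0419, adjusted p = 0.814). NrasG12D/G12D against NrasG12D/+ gave -3.87 ± 1.42 (SE; unadjusted p = 0.0237, adjusted p = 0.802). Relative to all genes these were 4.03 and -3.68, within slides 4.03 and -3.73, and without NrasG12D/+ replicate 1 2.49 and -2.09.

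Psma6 was the steadiest member within genotypes and is described for that reason, after its values were seen. Its levels were -2.20, -2.55 and -2.82 in NrasG12D/G12D HSCs, -1.34, -1.58 and -1.43 in NrasG12D/+ HSCs, and -1.32 and -1.02 in Nras+/+ HSCs. Each NrasG12D/G12D array lay below every array of the other 2 genotypes. The change was -1.36 ± 0.65 against Nras+/+ (SE, unadjusted p = 0.0676, adjusted p = 0.725) and -1.07 ± 0.58 against NrasG12D/+ (SE, unadjusted p = 0.0995, adjusted p = 0.802). Relative to all genes these were -0.91 and -0.87. Of all genes tested, 23.0% and 8.74% likewise lay lower without overlap in these comparisons. Psma6 was not among the members whose changes were followed through the alternative settings. The probe, shown above, lies at chr12:56328270-56328329 on the plus strand.

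Among the beta subunits, Psmb1 had the lowest unadjusted p of any member. This non-catalytic subunit had levels of -3.81, -2.05 and -1.11 in NrasG12D/G12D HSCs, -2.53, -0.09 and -0.53 in NrasG12D/+ HSCs, and -4.03 and -6.06 in Nras+/+ HSCs. All 6 mutant arrays lay above both Nras+/+ arrays. The probe was well above background on every mutant array but on only 1 Nras+/+ array, so the Nras+/+ mean includes a level near background. In NrasG12D/+ against Nras+/+ the change was 4.0 ± 1.13 (SE; unadjusted p = 0.00636, adjusted p = 0.814), and in NrasG12D/G12D against Nras+/+ it was 2.72 ± 1.13 (SE; unadjusted p = 0.039, adjusted p = 0.725). Set against all genes the changes were 4.25 and 3.17, with slide as a block 4.10 and 2.69, and under the normexp background correction 1.36 and 0.69. Without Nras+/+ replicate 2 they were 3.13 and 2.01.

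The 3 catalytic subunits differed in which arrays were high. Psmb7, which carries the trypsin-like site, had levels of -4.12, -2.46 and -2.58 in NrasG12D/G12D HSCs, -1.95, -0.16 and -0.84 in NrasG12D/+ HSCs, and -3.04 and -0.42 in Nras+/+ HSCs. Every NrasG12D/G12D array lay below every NrasG12D/+ array, while the Nras+/+ arrays overlapped with both. NrasG12D/G12D against NrasG12D/+ gave -2.07 ± 0.91 (SE; unadjusted p = 0.0496, adjusted p = 0.802). This was -1.87 relative to all genes, -1.85 within the slide that held both genotypes and -0.92 with normexp.

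Psmb5, with the chymotrypsin-like site, had levels of -4.40, -3.41 and 2.02 in NrasG12D/G12D HSCs, -2.15, -3.50 and -2.69 in NrasG12D/+ HSCs, and -4.48 and -3.12 in Nras+/+ HSCs. The high NrasG12D/G12D mean came from replicate 3 alone, and all genotypes overlapped. Against Nras+/+ the NrasG12D/G12D change was 2.31 relative to all genes, and 0.38 without that array (adjusted p of the full fit 0.773).

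Psmb6, with the caspase-like site, had levels of -1.30, -2.11 and -2.52 in NrasG12D/G12D HSCs, -2.69, -1.70 and -3.48 in NrasG12D/+ HSCs, and -2.0 and -0.64 in Nras+/+ HSCs. The 3 genotypes overlapped. Its largest difference was -1.30 ± 0.84 in NrasG12D/+ against Nras+/+ (SE; adjusted p = 0.814). It was -1.05 when set against all genes and -0.52 within the shared slide.

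Psmb10, the interferon-induced subunit that takes the place of Psmb7 in immunoproteasomes, had levels of -2.31, 0.44 and -2.67 in NrasG12D/G12D HSCs, 4.43, -2.69 and -2.03 in NrasG12D/+ HSCs, and -2.36 and -2.39 in Nras+/+ HSCs. Only NrasG12D/+ replicate 1 and, less so, NrasG12D/G12D replicate 2 were high. In NrasG12D/+ against Nras+/+ the change was 2.28 ± 1.96 (SE; adjusted p = 0.817). Set against all genes it was 2.54, and 0.22 without NrasG12D/+ replicate 1.

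**Figure D4:**
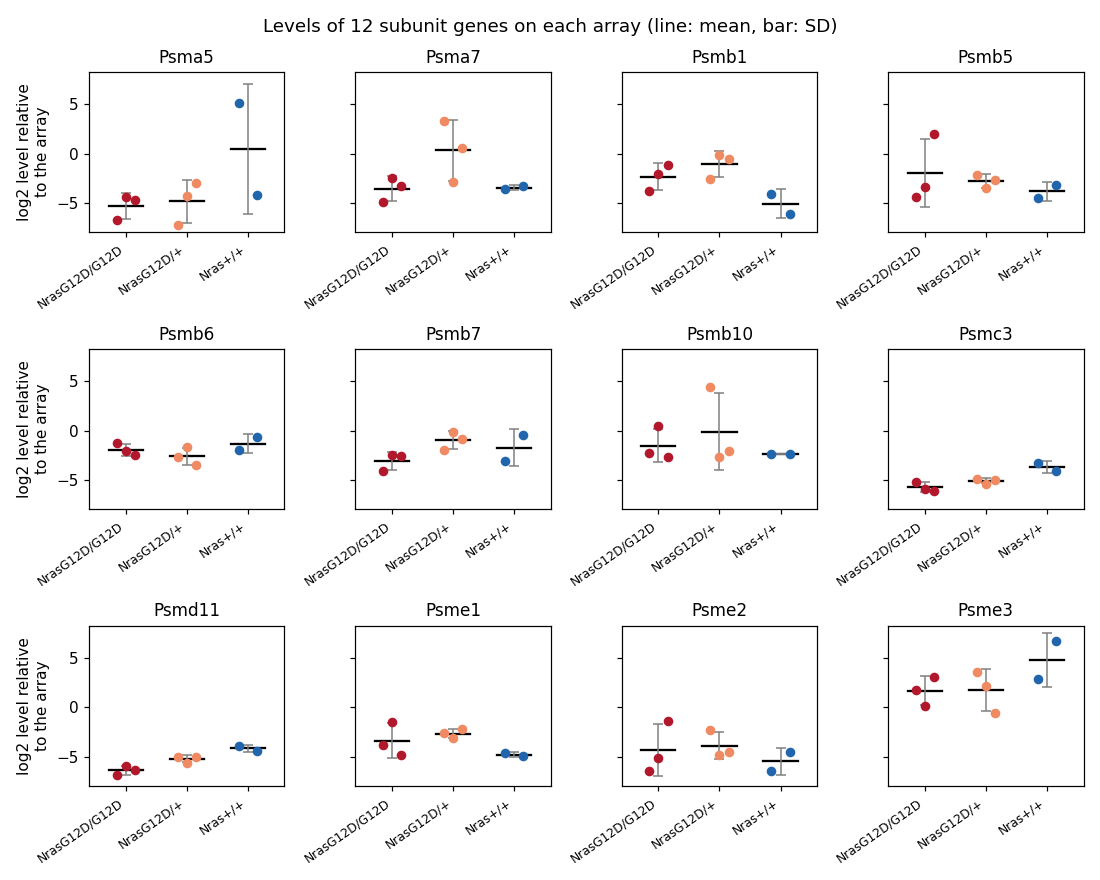
Log2 level relative to the array of 12 subunit genes on each array, by genotype; each point is 1 array, the line is the mean and the bar the SD (n = 3, 3 and 2 from left to right). Both Nras+/+ points of Psmb1 lie below, and both of Psmc3 and Psmd11 above, all points of the other genotypes.

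Of the 6 genes of the ATPase ring 4 could be tested. Psmc3, a subunit of that ring, had levels of -5.19, -5.96 and -6.12 in NrasG12D/G12D HSCs, -4.87, -5.38 and -5.03 in NrasG12D/+ HSCs, and -3.29 and -4.11 in Nras+/+ HSCs. All mutant arrays lay below both Nras+/+ arrays, and the probe was well above background on 1 NrasG12D/+ and 1 Nras+/+ array only. NrasG12D/G12D against Nras+/+ gave -2.06 ± 0.70 (SE; unadjusted p = 0.0167, adjusted p = 0.725), or a level at least 1.42-fold lower. It was -1.62 relative to all genes, with slide as a block -1.41 and with normexp -0.16.

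Psmc5, also of the ATPase ring, had levels of -4.91, -3.53 and -4.19 in NrasG12D/G12D HSCs, -4.95, -4.05 and -2.94 in NrasG12D/+ HSCs, and -3.10 and -2.43 in Nras+/+ HSCs. The NrasG12D/G12D arrays lay below both Nras+/+ arrays, and the NrasG12D/+ arrays overlapped with both. The difference between NrasG12D/G12D and Nras+/+ was -1.44 ± 0.84 (SE; unadjusted p = 0.119, adjusted p = 0.728), or at least 2.56-fold lower, since no NrasG12D/G12D array was well above background. It was -1.0 relative to all genes, -2.25 with slide as a block and -0.10 with normexp. Its other probe, the first of the pair shown above, gave -1.82 ± 0.79 in that comparison.

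Among the non-ATPase genes, Psmd11, a scaffold subunit of the lid, had levels of -6.82, -5.95 and -6.36 in NrasG12D/G12D HSCs, -5.02, -5.61 and -4.99 in NrasG12D/+ HSCs, and -3.88 and -4.37 in Nras+/+ HSCs. The 3 genotypes did not overlap, with NrasG12D/G12D lowest and Nras+/+ highest. The probe was well above background on 1 NrasG12D/+ and 1 Nras+/+ array. NrasG12D/G12D against Nras+/+ gave -2.25 ± 0.68 (SE; unadjusted p = 0.00961, adjusted p = 0.725), which amounts to a level at least 1.06-fold lower once the NrasG12D/G12D arrays are set to the dimmest signal well above background. Against NrasG12D/+ the difference was -1.17 ± 0.61 (SE; adjusted p = 0.802), with no bound above 1-fold. The first difference was -1.81 relative to all genes, with slide as a block -1.82 and with normexp -0.22.

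Psmd14, the lid's deubiquitinase, had levels of -6.67, -4.65 and -4.95 in NrasG12D/G12D HSCs, -4.40, -4.66 and -2.72 in NrasG12D/+ HSCs, and -3.71 and -3.66 in Nras+/+ HSCs. The NrasG12D/G12D arrays lay below both Nras+/+ arrays and overlapped with the NrasG12D/+ arrays. The change against Nras+/+ was -1.74 ± 0.91 (SE; unadjusted p = 0.0896, adjusted p = 0.725), at least 1.43-fold lower, since no NrasG12D/G12D array was well above background. Set against all genes it was -1.29, -2.79 with slide as a block and -0.14 with normexp. With Nras+/+ replicate 1 left out, none of Psma5, Psmc3, Psmd11 and Psmd14 was well above background in Nras+/+, and no such bound remains for them.

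Psmd4, a ubiquitin receptor of the regulatory particle, had levels of -0.68, 0.77 and 3.42 in NrasG12D/G12D HSCs, 2.99, 3.62 and -0.41 in NrasG12D/+ HSCs, and -0.32 and 0.28 in Nras+/+ HSCs. High arrays occurred in both mutant genotypes, and all 3 genotypes overlapped. NrasG12D/+ against Nras+/+ gave 2.09 ± 1.45 (SE; adjusted p = 0.814). Set against all genes it was 2.34, and 3.69 within the shared slide. The other Psmd4 probe gave 0.33 ± 1.04 in this comparison (SE), or 0.58 relative to all genes.

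Psmd2, a large scaffold subunit, had levels of -3.49, -4.10 and -6.29 in NrasG12D/G12D HSCs, -4.35, -7.05 and -3.55 in NrasG12D/+ HSCs, and -3.61 and -3.48 in Nras+/+ HSCs. The lowest arrays were 1 of each mutant genotype, and the genotypes overlapped. Psmd7, a lid subunit that pairs with Psmd14, had levels of -3.57, -3.11 and -2.85 in NrasG12D/G12D HSCs, -1.66, -3.37 and -2.37 in NrasG12D/+ HSCs, and -3.19 on both Nras+/+ arrays. Its arrays overlapped between all genotypes, and the lowest adjusted p was 0.809 for Psmd2 and 0.832 for Psmd7.

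Of the activators, Psme1 had levels of -3.80, -1.43 and -4.83 in NrasG12D/G12D HSCs, -2.60, -3.15 and -2.19 in NrasG12D/+ HSCs, and -4.58 and -4.97 in Nras+/+ HSCs. Every NrasG12D/+ array lay above both Nras+/+ arrays, where the probe was not well above background. That comparison gave 2.13 ± 1.01 (SE; unadjusted p = 0.0647, adjusted p = 0.814), or at least 2.76-fold higher in NrasG12D/+. It was 2.39 relative to all genes, within the shared slide 2.26 and with normexp 0.49.

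Psme2, the partner of Psme1, had levels of -6.48, -5.11 and -1.39 in NrasG12D/G12D HSCs, -2.33, -4.81 and -4.53 in NrasG12D/+ HSCs, and -6.44 and -4.51 in Nras+/+ HSCs. A single array was high in each mutant genotype, and the genotypes overlapped. NrasG12D/+ against Nras+/+ gave 1.58 ± 1.49 (SE; adjusted p = 0.821), at least 1.16-fold higher, since neither Nras+/+ array was well above background, and without NrasG12D/+ replicate 1 no bound remains. It was 1.84 relative to all genes, 0.84 without Nras+/+ replicate 1 and 0.31 with normexp.

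Psme3 had levels of 1.74, 0.18 and 3.12 in NrasG12D/G12D HSCs, 3.60, 2.16 and -0.55 in NrasG12D/+ HSCs, and 2.90 and 6.76 in Nras+/+ HSCs. Nras+/+ replicate 2 stood above every other array, and the other Nras+/+ array lay within the range of both mutant genotypes. The change was -3.16 ± 1.53 in NrasG12D/G12D (SE; unadjusted p = 0.0699, adjusted p = 0.725) and -3.10 ± 1.53 in NrasG12D/+ (SE; unadjusted p = 0.0742, adjusted p = 0.814), both against Nras+/+. Set against all genes the changes were -2.71 and -2.84, against -0.92 and -1.02 without Nras+/+ replicate 2, and 1.03 and -1.59 with slide as a block. The sign in NrasG12D/G12D thus turned with slide as a block. That fit joined the slides through NrasG12D/+ arrays, of which only replicate 3 shared a slide with NrasG12D/G12D arrays.

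Psme4 had levels of -3.28, -3.24 and 0.02 in NrasG12D/G12D HSCs, -2.39, -4.23 and 0.57 in NrasG12D/+ HSCs, and -1.66 and -2.16 in Nras+/+ HSCs. By this tested probe, replicate 3 was the high array in both mutant genotypes, and the genotypes overlapped. In NrasG12D/G12D against Nras+/+ the change was -0.25 ± 1.48 (SE; adjusted p = 0.966). Set against all genes it was 0.19, and -3.38 with slide as a block.

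The other 9 tested members (Psma2, Psma3, Psmb2, Psmb4, Psmc1, Psmc2, Psmd3, Psmd8 and Psmd12) had changes of -1.80 (Psma2) to 0.71 (Psmc1) in NrasG12D/G12D against Nras+/+, where only Psma2 had no overlap between the genotypes. Psmc1, Psmc2 and Psmd8 were not well above background in Nras+/+ HSCs, so their values against Nras+/+ carry no fold. In NrasG12D/+ against Nras+/+ the changes of the 9 members ran between -0.94 (Psmb2) and 3.25 (Psmb4), and Psmc1 alone had no overlap. In NrasG12D/G12D against NrasG12D/+ they ran between -3.50 (Psmb4) and 0.53 (Psma3), all with overlap. The bright Psmb4 array, NrasG12D/+ replicate 1, enters both of its values.

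In 6 members more than 1 probe met the detection criterion of 2 arrays, and the probes of a gene often gave different patterns. Across the 8 arrays Pearson's r between probes of the same gene was -0.28 for Psmb3, -0.39 for Psmd2 and -0.38 for Psmd7. It was 0.50 for Psmc5 and 0.66 for Psmd4, and 0.18, 0.47 and 0.61 for the 3 pairs of Psme4 probes. These probes read the same RNA samples and share the array and its scaling. Psmb3, a non-catalytic beta subunit, had levels of -0.64, 1.55 and -1.17 in NrasG12D/G12D HSCs, 1.47, -0.61 and 0.24 in NrasG12D/+ HSCs, and -0.21 and 1.57 in Nras+/+ HSCs by the tested probe, at chr11:97527200-97527259. Its other probe, at chr11:97529524-97529583, had 2.01, -1.99 and -3.34 in NrasG12D/G12D HSCs, -1.14, 0.59 and -2.26 in NrasG12D/+ HSCs, and -1.76 and -2.64 in Nras+/+ HSCs. The genotypes overlapped by either probe, and NrasG12D/G12D against Nras+/+ gave -0.76 ± 1.07 by the tested probe and 1.1 ± 1.51 by the other (SE). The changes had opposite signs in 2 of 3 comparisons for Psmb3 and in 1 of 3 for Psmd2, Psmd4 and Psmd7, and in none for Psmc5. For Psme4 they did so in 1 of 3 comparisons in 2 of its 3 pairs of probes. Set against all genes, signs differed in more comparisons for Psmb3 and Psme4. The Psmb3 probes then had -0.25 (tested) and 0.03 in NrasG12D/G12D against NrasG12D/+. In NrasG12D/G12D against Nras+/+ the tested Psme4 probe had 0.19, and the others -0.88 and -0.83. A second Psmd7 probe had 6.07 on NrasG12D/+ replicate 2 and -6.19 to -3.31 on the other 7 arrays.

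**Figure D5:**
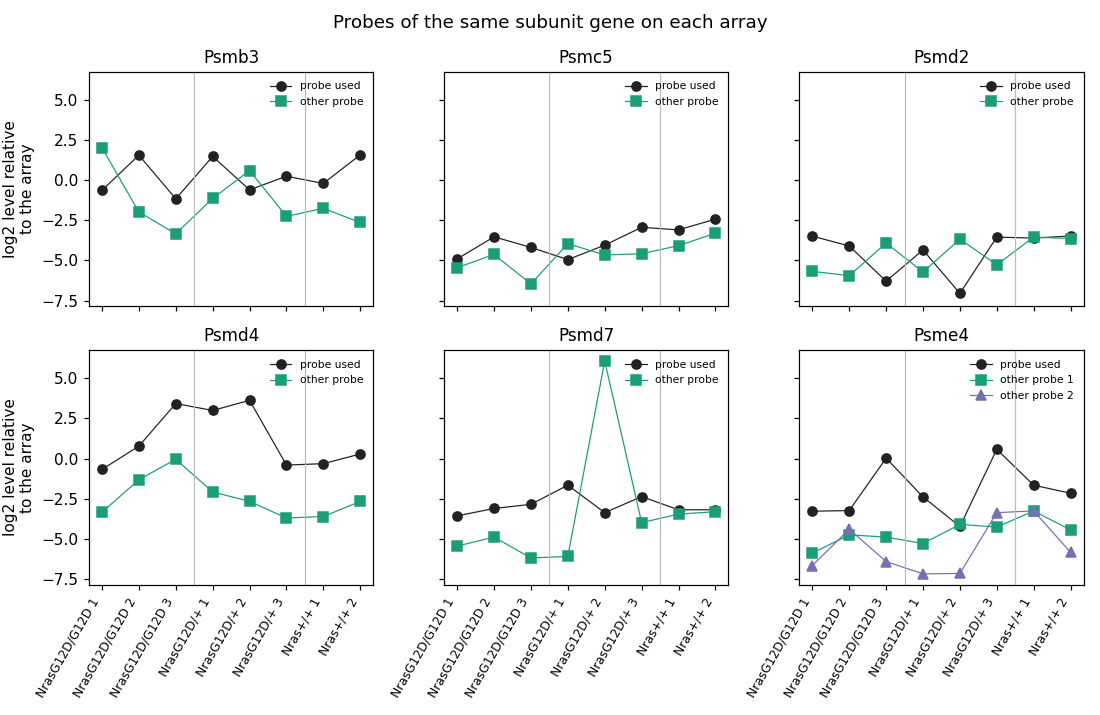
Log2 level relative to the array for the probes of 6 subunit genes that had several probes well above background on at least 2 arrays; points are arrays in order of genotype and replicate, and lines join the values of a probe. The Psmd4 probes run alike (r = 0.66), and those of Psmb3, Psmd2 and Psmd7 do not (r = -0.28, -0.39 and -0.38).

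Genes that act with the proteasome were taken as lists and gave no call either. Of 6 assembly factors, 4 were on the array and 2 were tested: Pomp, the maturation factor of the core, had -2.94, -2.19 and -2.30 in NrasG12D/G12D HSCs, -2.79, -2.85 and 0.75 in NrasG12D/+ HSCs, and -0.20 and -1.10 in Nras+/+ HSCs. Both Nras+/+ arrays of Pomp lay above the NrasG12D/G12D arrays (-1.82 ± 1.12, SE; adjusted p = 0.730), and NrasG12D/+ replicate 3 was its highest array. Psmg3, an assembly chaperone of the core, was well above background on 2 arrays, neither of them Nras+/+, and has no fold against that genotype (adjusted p = 0.785). Of the receptors, deubiquitinases and regulators that bind the proteasome, 12 of 18 were tested, and their median change in NrasG12D/G12D against Nras+/+ was -0.80, against -0.44 for all genes. A higher mean was found for 1 of 12 (35.5% of all genes), and 4 of 12 lay above the all-gene median.

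The gene with a higher mean was Adrm1, a ubiquitin receptor of the regulatory particle. Its levels were -1.42, 0.08 and 1.33 in NrasG12D/G12D HSCs, -1.50, -1.67 and -2.34 in NrasG12D/+ HSCs, and -2.01 and -2.12 in Nras+/+ HSCs. Every NrasG12D/G12D array lay above every array of the other 2 genotypes, narrowly so for replicate 1 (-1.42, against -1.50 in NrasG12D/+). The difference of means was 2.06 ± 0.89 against Nras+/+ (SE; adjusted p = 0.725) and 1.83 ± 0.80 against NrasG12D/+ (SE; adjusted p = 0.802). Zfand5, which stimulates the proteasome, and Ddi2, a protease that activates a transcription factor of proteasome genes, gave -1.68 ± 0.80 and -1.78 ± 0.96 in NrasG12D/G12D against Nras+/+ (SE; adjusted p = 0.725 each).

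Of 9 genes of ubiquitin and its activation, 8 were tested and 0 passed. Ubb, a polyubiquitin gene, had levels of -5.71, -5.99 and -5.75 in NrasG12D/G12D HSCs, 6.46, -3.19 and -1.64 in NrasG12D/+ HSCs, and -1.20 and 0.14 in Nras+/+ HSCs. No NrasG12D/G12D array was well above background, and all lay below every other array: at least 26.8-fold lower against NrasG12D/+ (unadjusted p = 0.0148, adjusted p = 0.802) and at least 12.8-fold lower against Nras+/+ (unadjusted p = 0.0518, adjusted p = 0.725). Its highest array was again NrasG12D/+ replicate 1, and without it the bound against NrasG12D/+ was 3.45-fold. Ube2r2, a ubiquitin-conjugating enzyme, had 8.65 on NrasG12D/G12D replicate 2 and -4.62 to -2.94 on the other 7 arrays.

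Interferon response genes, set beside Psmb10, Psme1 and Psme2, gave 0 calls among 12 tested of 15. A higher mean was found for 4 of 12 in NrasG12D/G12D against Nras+/+ (35.5% of all genes) and for 3 of 12 in NrasG12D/+ against Nras+/+ (41.9% of all genes). B2m, the light chain of MHC class I, gave -1.99 ± 0.77 in NrasG12D/G12D against Nras+/+ (SE; adjusted p = 0.725), at least 1.51-fold lower, a bound that does not remain without Nras+/+ replicate 2. Mx1, an antiviral GTPase, gave 3.63 ± 1.48 in NrasG12D/+ against Nras+/+ (SE; adjusted p = 0.814), with 1 Nras+/+ array at -3.96 and the other at 0.16. Ifi27, another interferon-induced gene, was well above background on neither Nras+/+ array and has no fold in that comparison (adjusted p = 0.814).

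The promoters of the members were searched for sequence they share. RefSeq promoters of 300 bases around each gene's start (GRCm38.p6) were found for 33 of the 40 members, 36 promoters in all. CCGGAAG, a core of ETS factor sites, was found on either strand in 13 of the 36 (36.1%), against 8.86% of 32851 promoters. CCAAT was found in 33.3%, against 37.4% of all promoters, and TGACNNNGC, of the antioxidant response element, in 16.7%, against 12.4%. The 3 motifs are described only, and no link to the levels was tested. Windows around CCGGAAG, or its reverse complement CTTCCGG, are shown in capitals for members described above, in the direction of the gene.
Psma6, chr12:55398683-55398709, plus strand: gagccaccacCCGGAAGcccgcggacc
Psmd2, chr16:20651616-20651642, plus strand: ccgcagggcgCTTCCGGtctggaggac
Psmd4, chr3:95042723-95042749, minus strand: tacagctgttCCGGAAGctgctgcgaa
Psme3, chr11:101316096-101316122, plus strand: ggcacaaggcCCGGAAGctccgacagc
Psme4, chr11:30771712-30771738, plus strand: tggccccgccCCGGAAGtgacttgagg
The motif began 132 bases before the start of Psma6, 26 before Psmd2, 125 before Psmd4, 107 before Psme3 and 53 before Psme4. The promoters of Psmc1, Psmc2, Psmc6, Psmd6, Psmd11, Psmd12 and Psmd13 also held it.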

How the data were processed

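Per the file headers, the deposited scanner files were written by Agilent Feature Extraction 10.5.1.1. The processed signal is an intensity on a linear scale that the authors' scanner software had background-subtracted, per the file headers, and the mean and local background intensities are uncorrected. The deposited value table is a ratio, equal to the processed signal over each array's median. Flags of 0 or 1 mark, per the file headers, spots well above background and outlier spots.

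The log2 of the processed signal was averaged over spots of the same probe, with outlier spots missing, and each array's 75th percentile (over probes well above background on all arrays) was subtracted. Genes were tested with limma 3.58.1 in R 4.3.3 (lmFit and eBayes, two-sided, all 8 arrays sharing 1 spread, Benjamini-Hochberg over 15038 genes), after a check on simulated data. A fold against a group not well above background is a bound from the lowest signal well above background on each array. It compares group means of scaled levels and carries no error of its own. The number of arrays limits the precision.

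Values on every array were given for the 2 members with the lowest unadjusted p in each structural class, every member with an unadjusted p under 0.05, the catalytic beta genes, Psmb10, the activators, and members whose probes differed in sign, and for up to 3 genes of each list. Members and lists were chosen with earlier results of these data known. Replicate numbers are not stated to pair the samples, and the main fit did not pair the arrays. Same-numbered arrays of different genotypes had deviations correlated at -0.088 to 0.079, which cannot show whether samples were paired. Alternatives covered scaling, background correction, the deposited value table, filters, probe choice, slide, replicate block, array weights and leaving out each array.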

Additional observations from a re-analysis of the deposited data

How the results depend on the processing

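No proteasome member passed under any of the alternatives run, whose lowest adjusted p values were 0.135, 0.202 and 0.472 for NrasG12D/G12D against Nras+/+, NrasG12D/+ against Nras+/+ and NrasG12D/G12D against NrasG12D/+. Over all genes, 0 to 10 passed, with 9 and 10 without Nras+/+ replicate 2. The median change of the members in NrasG12D/G12D against Nras+/+ was 0.03 with the percentile over all probes and 0.17 with the deposited value table, where that of all genes was 0.05 and 0.21, and -1.12 to -0.02 when an array was left out. In NrasG12D/G12D against NrasG12D/+ it was 0.00 with normexp and -0.22 with the value table, where that of all genes was 0.11 and 0.26. Signs, set against all genes, were followed for the changes given above for the 19 members chosen by the rule. Psma6, second probes and genes of the lists were not included. Among the changes followed, the sign turned in NrasG12D/G12D against Nras+/+ for Psmb3 (0.18 with slide as a block, -1.17 to 0.43 without 1 array). There it also turned for Psme3 (1.03 with slide as a block) and Psme4 (-0.06 with no filter, -3.38 with slide as a block, -0.86 to 0.87 without 1 array). With a replicate block, Psmb3 had 0.03 and Psme4 -0.95, the median changes of the members were -0.46, -0.01 and -0.67, and 0 members passed, as without the block. Over all 3 changes of the 19 members chosen by the rule, signs turned with slide as a block for 4, 3 and 6 members, with normexp for 1, 2 and 5, and with a replicate block for 3, 3 and 0, in the order of comparisons above. The cause of these shifts was not tested. With the weaker detection flag, 31.4 members per array were detected, against 21.2. The median level of the members was 0.20, 0.51 and -0.08 in NrasG12D/G12D, NrasG12D/+ and Nras+/+ HSCs with the percentile over all probes, and -1.75, -1.69 and -1.49 with normexp, against -3.53, -2.90 and -3.32 in the main setting. No within-slide value exists for NrasG12D/G12D against Nras+/+. Normexp brought the changes of several members towards 0, and 11 of 40 members were well above background on all arrays. It was run with an offset of 50, where arrays had median processed signals of 3.09 to 6.75. Such an offset by itself draws log2 changes of dim probes towards 0.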
